A study of Mus musculus with 56 samples.

Results

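The footprint to RNA ratio, a measure of translation efficiency, was compared in pairs of liver libraries that were matched by their expression profiles. The pairs were chosen by measured values, RNA levels first and then correlation. An RNA column entered when it held more than 10000 CPM (counts scaled to the total of the column) of Alb, the albumin transcript of hepatocytes, and 18 columns did. The lowest of them held 57196 CPM and the highest column outside held 462 CPM. Each was joined to the liver footprint column with the highest Pearson correlation over 400 genes, and the pairs took up 35 of the 56 libraries. Those 400 genes had the largest product of variances in the 2 assays among 7340 that reached 30 counts in every liver footprint column and 10 in every liver-profile RNA column. The product was 0.169 at rank 400 and 0.168 at rank 401. Matching by label was not possible, because 7 of the 18 RNA columns were labelled kidney, and none of the 18 was joined to the footprint column of its own label. The ratio was then studied in 10841 other genes, which the matching did not use.

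The series holds ribosome footprints and ribosomal RNA-depleted total RNA from liver and kidney of C57BL/6 mice at several ages. Sex is not given in the labels used here. The liver footprint columns are labelled 1m, 3m, 10m, 20m, 26m and 32m, with 3 columns each. The age field gives 11 months for those titled 10m. The series states 2 animals at 32 months and 3 at the other ages, so 3 libraries of 32m cannot all be separate animals. A pair carries the label of its footprint column. The RNA columns of the 3m pairs were themselves labelled liver of 11, 26 and 32 months. Those of the 1m pairs were labelled liver of 11, 20 and 32 months. In the 10m pairs they were labelled kidney of 20, liver of 20 and kidney of 32 months. For 20m they were liver of 1, kidney of 3 and liver of 3 months. All 3 of 26m were labelled kidney, of 3, 20 and 32 months. For 32m they were kidney of 32, liver of 20 and liver of 3 months.

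The best correlation of an RNA column ran from 0.798 to 0.975, with a median of 0.905, and the second best from 0.180 to 0.795. The smallest gap between them was 0.0693. These values chose the pairs and test nothing. In 17 cases the choice was mutual. The RNA column labelled liver 3m replicate 3 reached 0.810 with footprint column 3 of 20m, which already had a partner at 0.903, and 0.730 with footprint column 2 of 20m, which had none. Both RNA columns were kept with the shared footprint column as 1 block. The same 18 pairs came out with 200 or 800 matching genes.

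**Figure D1:**
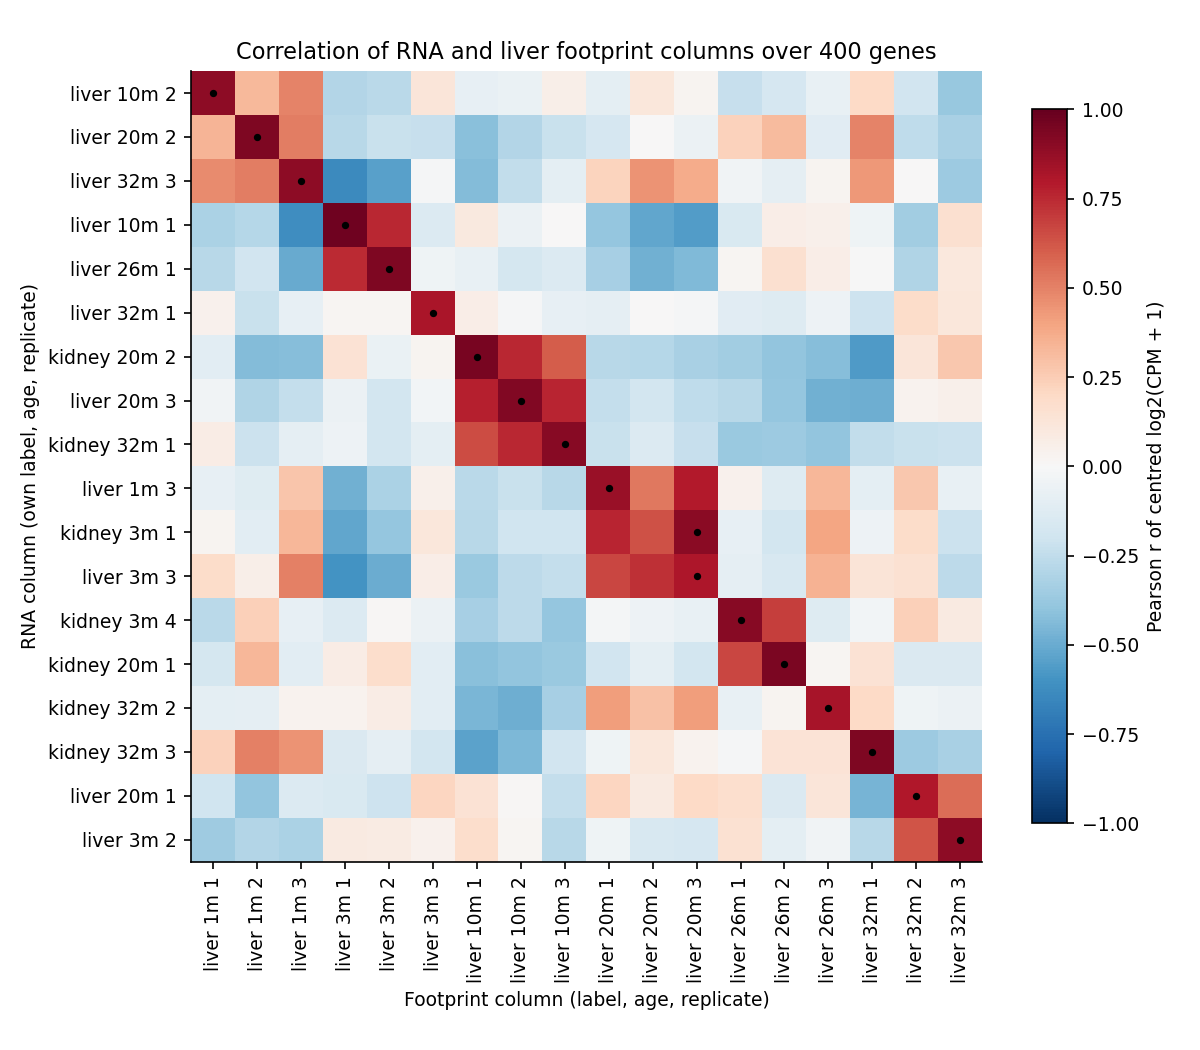
Pearson r of 18 liver-profile RNA columns (rows, by their own labels) with the 18 liver footprint columns (columns, by label), over the 400 matching genes. Dots mark the highest r of each row, from 0.798 to 0.975. All columns but footprint 20m replicate 2 hold a dot, and footprint 20m replicate 3 holds a pair of them.

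The age labels of the footprint columns are themselves in doubt, so the groups are called here by their labels only. H19, an imprinted RNA that is abundant in fetal and newborn liver, ran from 0 to 0.414 CPM in the footprint columns labelled 1m and from 9.83 to 22.2 CPM in those labelled 10m. In the RNA of the 18 pairs H19 ran from 0 to 0.634 CPM only, so its level in the 10m footprints was not seen in RNA. Ighm, the heavy chain of IgM antibodies, which accumulates as mice mature, ran from 3.94 to 7.87 CPM in footprints labelled 1m, from 3.82 to 6.49 CPM in those labelled 10m, and from 24.1 to 805 CPM in those labelled 3m. In RNA of the pairs Ighm ran from 3.21 to 5.30 CPM in 1m, 2.62 to 4.60 CPM in 10m and 46.7 to 1705 CPM in 3m. The labels 1m and 10m therefore shared low Ighm, and no order of ages is read from any value below. Total counts ran from 7985755 to 26921222 in footprint columns and from 2551502 to 16562937 in RNA columns of the pairs. Among the pairs compared, the RNA total was lowest in pair 3 of 3m (3213533 counts). Pair 1 of 3m stood apart by low Alb, with 30523 CPM in footprints and 57196 CPM in RNA.

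The cell controls how often each mRNA is loaded with ribosomes as well as how much of it is made. One class is regulated together. Its mRNAs begin with a C followed by an uninterrupted stretch of C and U, the 5′ terminal oligopyrimidine (TOP) sequence. Nearly all ribosomal proteins and many elongation and initiation factors are made from such mRNAs. The kinase mTOR, which responds to nutrients and growth factors, keeps them on ribosomes, and when it is inhibited they leave polysomes through binding of LARP1. In liver this class is known to move on and off polysomes with feeding.

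The DNA near the annotated starts of the genes called for a changed ratio is shown because 3 of them belong to this class. Rpl35a was added after its value was seen. Each line gives 30 bases, with the longest run of C and T on the sense strand, within 50 bases on either side of a RefSeq start site, in capitals (RefSeq, GRCm38.p6).
Rps25, chr9:44407684-44407713, plus strand: ccaccgggCTTCCTTTTTTTCCgacatctt
Rpl37a, chr1:72711274-72711303, plus strand: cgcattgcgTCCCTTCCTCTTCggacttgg
Rpl35a, chr16:33056468-33056497, plus strand: cggggcttgCCTTCCTCTTTCCgccatctt
Eif4b, chr15:102073723-102073752, plus strand: gctcagactccaCCCCTTCggccacatgtc
Pfdn5, chr15:102326087-102326116, plus strand: gcgcagagcgtaTCCCCTggcggcaccacg
Chp1, chr2:119547712-119547741, plus strand: ccaccccttgTTTCTCTCCCCgggccgcaa
Lifr, chr15:7140543-7140572, plus strand: cagtaagcagcaCCCCTCCgtggcattggc
Map1lc3b, chr8:121590388-121590417, plus strand: ccgCTCTCgggggccgccctcggccccacc

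The run was 14 bases long in Rps25 and 13 in Rpl37a and Rpl35a. Counted from the annotated start, it lay from −22 to −9 in Rps25, from 23 to 35 in Rpl37a and from 24 to 36 in Rpl35a. No run printed here covers the annotated start, so none is shown to be a 5′ terminal TOP sequence. Among the 8520 tested genes with a RefSeq window, 6.21% had a run of at least 14 bases and 8.22% of at least 13. Chp1 had a run of 11 bases, which 14.8% of tested genes reached. Runs of 7 bases in Eif4b and Lifr, 6 in Pfdn5 and 5 in Map1lc3b were no longer than the median of 7 or shorter. A run of at least 10 bases was present at 27 of 35 ribosomal protein genes with a window (77.1%) and at 7 of 15 other TOP genes (46.7%). The share was 19.9% among tested genes and 20.6% among all 27025 genes with a window. It was 21.4% among 28 other translation factors and 18.5% among 65 mitochondrial ribosomal proteins. The letters CTTTC, searched on both strands, were found in any window of 57.1% of these ribosomal protein genes and 33.3% of the other TOP genes. The shares were 22.3% of tested genes and 26.2% of all genes with a window. These are letters near annotated starts, which need not be the starts used in these livers.

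Between the 3m and the 1m pairs, no gene was called in opposite directions in footprints and RNA. Of 10841 genes tested with edgeR's quasi-likelihood test, footprints were called higher in 3m for 868 (8.01%) and lower for 351 (3.24%), at a Benjamini-Hochberg adjusted p under 0.05. RNA was called higher for 1225 (11.3%) and lower for 669 (6.17%). These counts moved with single pairs. Against 1219 footprint calls, the number was 258 without pair 1 of 3m and 2369 without pair 3 of 3m. Without pair 1, 2 or 3 of 1m there were 694, 512 and 234. Against 1894 RNA calls, the number was 796 without pair 1 of 3m, and 1085 and 855 without pair 2 or 3 of 1m. Fitted on the 6 compared pairs alone, edgeR called 12 genes in footprints and 363 in RNA. In both assays 922 genes were called with the same sign, and 0 with opposite signs. The log2 differences of the 2 assays had a Pearson r of 0.904 across genes, which are not independent replicates, and the pairs were matched so that their profiles would be alike. The SD across genes was 0.79 for footprint differences, 0.87 for RNA differences and 0.37 for ratio differences, all on the log2 scale.

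The ratio itself was called for 7 genes. Those 7 are 0.0646% of the genes tested. It rose in 3m for Rps25, Rpl37a, Eif4b, Pfdn5, Lifr and Chp1 (0.0553% of genes) and fell for Map1lc3b (0.00922%). Their adjusted p lay between 0.0373 and 0.0410 by edgeR's quasi-likelihood test with a term for each pair, and 863 genes had an unadjusted p under 0.05. The RNA of all 7 was called in the direction opposite to the ratio, and footprints were called for Lifr alone. The ratio contains the RNA value, so a gene lower in RNA alone is higher in ratio by construction. The number of calls depended on single pairs. Without pair 1, 2 or 3 of 3m it was 2, 0 and 0, and without pair 1, 2 or 3 of 1m it was 21, 7 and 0, with 763 to 933 genes at an unadjusted p under 0.05. It also depended on the fit. In the 6 compared pairs alone 2 genes were called, both lower, so the balance of directions turned. No gene was called with limma on the log2 ratios (740 at an unadjusted p under 0.05), with no pair term (275) or with the 400 matching genes kept (920), whereas DESeq2 called 18 and a fit with no filter on low counts called 107.

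Ribosomal proteins lay higher in ratio in 3m almost throughout. The ratio difference was above 0 for 48 of the 49 tested, against 5007 of all 10841 genes, and its median was 0.75 on the log2 scale, against −0.02 for all genes. Both called members rose, and 31 had an unadjusted p under 0.05, all of them higher, against 3.26% of all genes. The 3m and 1m ratios did not overlap in 24 of them, all higher in 3m, a state that 4.81% of all genes showed. Footprints hardly differed, with a median difference of 0.15 and no call in either direction. The median RNA difference was −0.72, with 15 called lower, against 6.17% of all genes, and 0 higher, against 11.3%. Proteins of the large subunit (27 genes, median 0.75) and of the small subunit (22 genes, median 0.73) had nearly the same shift. This pattern was part of what was known when the list was chosen, and the group carries no test of its own.

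Rps25, a protein of the small subunit, had log2 ratios of 2.39, 2.46 and 1.39 in the 1m pairs and 3.17, 3.23 and 3.61 in the 3m pairs. All 3m values lay above all 1m values, and pair 3 of 1m stood lowest. Its footprints were 54.0, 66.7 and 47.5 CPM in 1m and 62.5, 61.3 and 66.3 CPM in 3m, whereas its RNA was 9.91, 11.7 and 17.8 CPM in 1m and 6.50, 6.08 and 4.99 CPM in 3m. The ratio rose by 1.22 ± 0.24 on the log2 scale (SE, 3 pairs a side, edgeR adjusted p = 0.0410).

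Rpl37a, of the large subunit, had log2 ratios of 4.65, 4.53 and 3.40 in 1m and of 5.63, 5.71 and 6.29 in 3m. Its footprints were 82.5, 84.7 and 55.7 CPM in 1m and 84.9, 84.4 and 87.6 CPM in 3m. The groups did not overlap in ratio, with a rise of 1.77 ± 0.35 (SE, edgeR adjusted p = 0.0410), but the RNA behind it was thin. It was 46, 25 and 25 counts in 1m and 17, 19 and 2 counts in 3m.

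Other members had the same form without passing the test. Rpl35a had log2 ratios of 2.24, 1.68 and 1.08 in 1m and 2.80, 3.14 and 2.31 in 3m, with a difference of 1.20 ± 0.26 (SE, edgeR adjusted p = 0.0701). For Rpl7 they were 3.00, 2.19 and 2.87 in 1m and 3.90, 3.57 and 3.94 in 3m, with a difference of 1.12 ± 0.23 (SE, edgeR adjusted p = 0.0701). Both belong to the large subunit, and neither overlapped between the labels. The only tested ribosomal protein below 0 was Rpl7a, singled out after its value was seen, at −0.48 ± 0.45 (SE, edgeR adjusted p = 0.867).

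The RNA side of these genes was thin throughout. Ribosomal protein genes took 0.691% to 1.07% of the counts in the footprint columns and 0.0534% to 0.114% of those in RNA. The median tested member had 55 to 99 RNA counts in the 1m pairs and 14 to 74 in the 3m pairs, against 986 to 2831 footprint counts in the same pairs. Of the 79 ribosomal protein genes, 30 did not pass the minimum of 10 counts in both assays and were not tested. Among those 30, Rps13 had a mean of 0 RNA counts and 1320 footprint counts over the 6 pairs, and Rpsa had 0.5 and 3548. How reads that also match the many processed pseudogenes of this family were counted is not given in the sources used here, so these levels are uncertain. Restricted to members with a mean of at least 50 RNA counts, the median ratio difference was 0.82 over 29 genes.

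TOP mRNAs outside the ribosome moved the same way. Of 23 listed genes, 21 were tested, and 20 lay above 0, against 5007 of all 10841. In 12 the labels did not overlap, all higher in 3m, against 4.81% of all genes. An unadjusted p under 0.05 was reached by 16, all higher, against 3.26%. The median difference of the list was 0.65 in ratio, 0.11 in footprints and −0.53 in RNA. In RNA 11 were called lower, against 6.17% of all genes, and in footprints 0, against 3.24%. Only Eif4b was called in ratio, and the single member below 0 was Eif3f, singled out after its value was seen, at −0.01 ± 0.33 (SE, edgeR adjusted p = 1). With members of at least 50 RNA counts the median was 0.70 over 18 genes.

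Eif4b, a cofactor of the RNA helicase that opens mRNA for the ribosome, had log2 ratios of 2.56, 1.95 and 1.82 in 1m and of 2.80, 3.14 and 3.32 in 3m. Footprints were level, at 280, 264 and 282 CPM in 1m and 302, 287 and 319 CPM in 3m, while RNA was 47.1, 67.8 and 79.7 CPM in 1m and 42.9, 32.2 and 31.5 CPM in 3m. The rise was 0.96 ± 0.19 (SE, edgeR adjusted p = 0.0410).

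The elongation factors Eef1a1, which brings aminoacyl-tRNA to the ribosome, and Eef2, which moves it along the mRNA, had ratio differences of 1.35 ± 0.42 and 1.29 ± 0.56 (SE, edgeR adjusted p 0.376 and 0.604). Pabpc1, the poly(A)-binding protein, stood at 1.78 ± 0.53 and Tpt1, with a mean of only 1.40 CPM in RNA, at 1.86 ± 0.53 (SE, edgeR adjusted p 0.348 and 0.314). The subunits of initiation factor 3 ranged from −0.01 for Eif3f to 0.65 for Eif3e. These members were named after their values were seen.

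Translation factors not listed as TOP mRNAs had a smaller median difference of 0.11, and none of 35 was called in ratio. Of these, 28 lay above 0, and 5 did not overlap, all higher, against 4.81% of all genes. Without pair 3 of 1m the median was 0.20. The initiation scaffolds Eif4g2 and Eif4g1 had 0.17 ± 0.15 and −0.20 ± 0.13 (SE, edgeR adjusted p 0.858 and 0.750). Medians were 0.09 for 20 tRNA synthetases, 0.10 for 74 mitochondrial ribosomal proteins and 0.06 for 37 proteasome subunits, with no call.

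**Figure D2:**
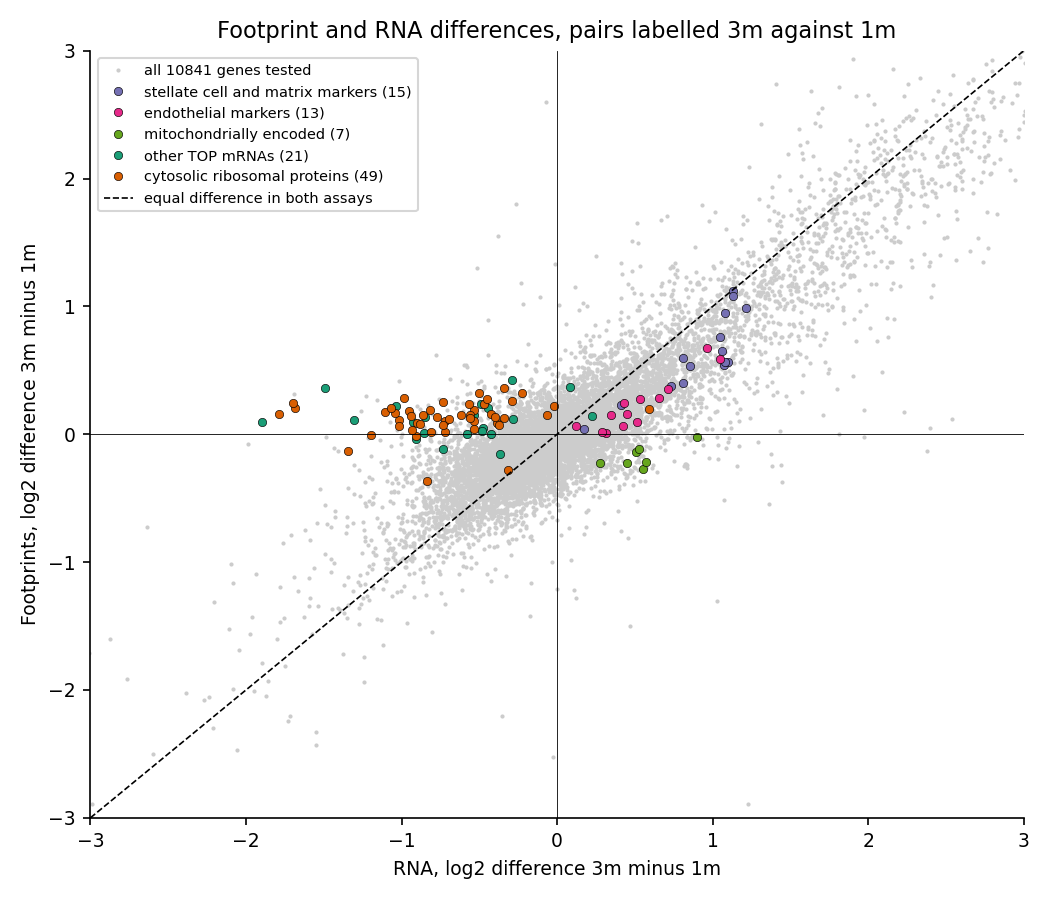
Log2 difference of footprints (vertical) against that of RNA (horizontal), 3m minus 1m, for all 10841 genes tested. Coloured points are gene lists, the dashed line marks equal differences, and 175 genes lie outside the axes at ±3. Ribosomal protein and other TOP genes, except Rpl7a and Eif3f, lie above the line, with median footprint differences of 0.15 and 0.11 and median RNA differences of −0.72 and −0.53, and mitochondrially encoded genes lie below it.

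Across all 18 pairs, the ribosomal protein ratio can be given as the median deviation of its 49 members from each gene's mean. It was 0.06, −0.31 and −0.87 in 1m and 0.31, 0.50 and 0.59 in 3m, so the groups did not overlap and pair 3 of 1m was lowest of all. In 10m it was 0.53, 0.14 and 0.15, and all 3 pairs lay above 0. In 20m it was −0.07, −0.19 and −0.18, in 26m 0.02, −0.03 and −0.33, and in 32m −0.47, −0.13 and 0.17. These labels overlapped with 1m and with each other. Fitted against 1m, the median difference was 0.57 for 10m, 0.19 for 20m, 0.26 for 26m and 0.10 for 32m; all of these share the same 1m pairs.

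Other TOP genes had the corresponding differences from 1m of 0.57, 0.28, 0.32 and 0.08. In single pairs their median deviation was 0.03, −0.42 and −0.58 in 1m, 0.27, 0.26 and 0.55 in 3m, and 0.53, 0.27 and 0.09 in 10m. Pair 3 of 1m was again the lowest. Left out, it lowered the 3m minus 1m median of ribosomal proteins from 0.75 to 0.55 and that of other TOP genes from 0.65 to 0.57. Without pair 1 of 1m the medians were 1.05 and 0.80, and without pair 3 of 1m and pair 1 of 3m together they were 0.67 and 0.65.

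**Figure D3:**
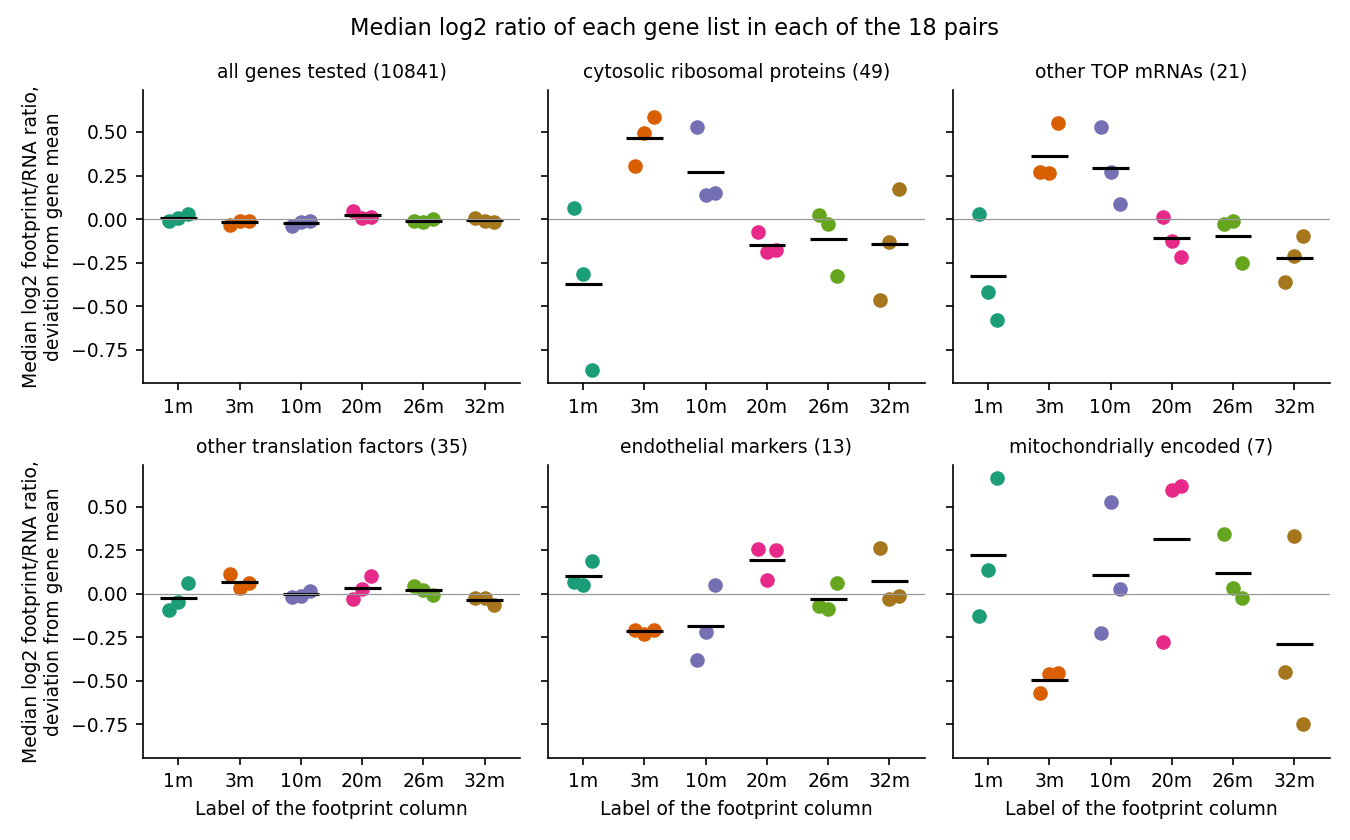
Median log2 footprint to RNA ratio of each list in each pair, as the deviation from the gene's mean over 18 pairs, by the label of the footprint column. Points are pairs and bars are means of 3 pairs, and 20m has 2 points that share a footprint column. Ribosomal protein and other TOP genes lie above 0 in every 3m and 10m pair, while the median of all genes stays within 0.05 of 0.

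The other called genes lie outside the TOP lists. Pfdn5, a subunit of the chaperone prefoldin, had log2 ratios of 1.02, 1.39 and 0.68 in 1m and 2.13, 1.73 and 2.13 in 3m. Its footprints ran from 31.9 to 42.6 CPM over the 6 pairs, and its RNA from 8.73 to 11.7 CPM in 3m and higher in all 1m pairs, up to 19.7 CPM. The rise was 0.95 ± 0.19 (SE, edgeR adjusted p = 0.0410).

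Chp1, a calcium-binding partner of sodium-proton exchangers, had log2 ratios of 2.15, 1.99 and 1.44 in 1m and 2.61, 2.66 and 2.85 in 3m. Footprints overlapped, at 288 to 316 CPM in 1m and 275 to 383 CPM in 3m, and RNA did not, at 64.7 to 116 CPM in 1m and 43.1 to 52.7 CPM in 3m. The rise was 0.84 ± 0.16 (SE, edgeR adjusted p = 0.0373).

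Lifr, the receptor for leukaemia inhibitory factor, had the most RNA counts of the 7 (776 to 8984 in these pairs) and was the only one with a call in footprints. Its RNA was 550, 561 and 744 CPM in 1m and 150, 175 and 242 CPM in 3m, a fall of 1.71 on the log2 scale (edgeR adjusted p = 0.000693). Footprints fell less, from 535, 465 and 701 CPM to 267, 329 and 391 CPM, by 0.78 (edgeR adjusted p = 0.0132). The log2 ratio was −0.04, −0.27 and −0.09 in 1m and 0.83, 0.91 and 0.69 in 3m, and it rose by 0.94 ± 0.17 (SE, edgeR adjusted p = 0.0373).

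Map1lc3b, which makes the autophagosome protein LC3B, went the other way. Its footprints were 106, 83.0 and 80.5 CPM in 1m and 96.8, 97.9 and 105 CPM in 3m, while its RNA was 28, 13 and 4 counts in 1m and 56, 79 and 20 counts in 3m. The log2 ratio was 5.58, 5.27 and 5.99 in 1m and 4.42, 4.25 and 3.96 in 3m, and it fell by 1.56 ± 0.30 (SE, edgeR adjusted p = 0.0410). With a mean of 3.18 CPM in RNA it lies under the 5 CPM asked of genes named for their size, and it is named as a called member of the autophagy list.

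**Figure D4:**
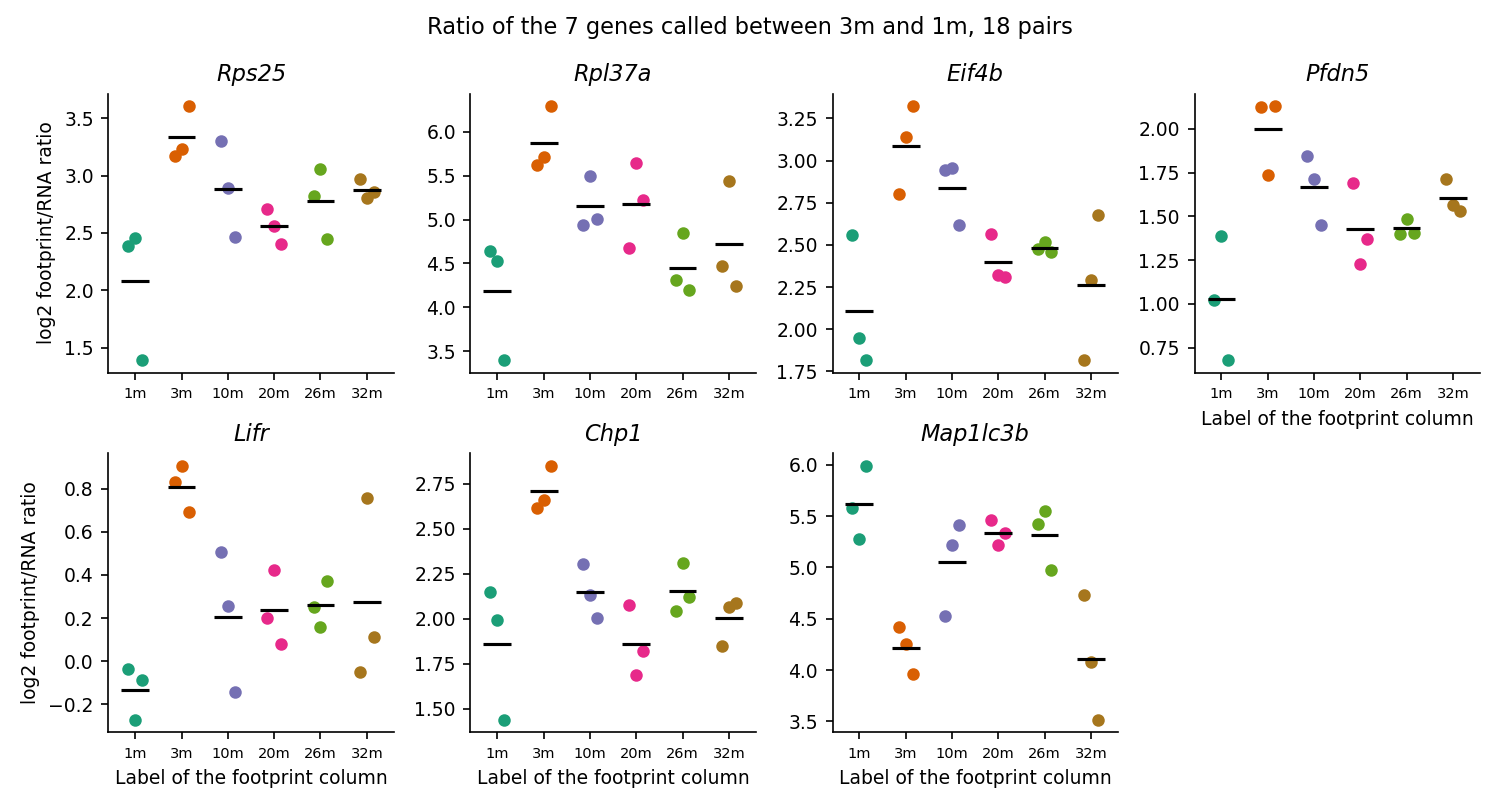
Log2 footprint to RNA ratio of the 7 genes called between 3m and 1m, in all 18 pairs by the label of the footprint column. Points are pairs, bars are means of 3 pairs and each panel has its own axis. The 3m and 1m points do not overlap in any panel, which the calls favoured. In Map1lc3b the 32m points (3.52 to 4.73) overlap with those of 3m.

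Endothelial markers, markers of stellate cells and matrix, and mitochondrially encoded genes lay lower in ratio in 3m. All 13 tested endothelial markers lay below 0 in ratio difference, with a median of −0.32, and 10 did not overlap, a state that 8.04% of all genes showed. Of all genes, 5834 of 10841 lay below 0. All 15 markers of stellate cells and matrix lay below 0, with a median of −0.32 and 3 that did not overlap. Their median was −0.49 without pair 1 of 1m and −0.20 without pair 2 of 1m, while that of endothelial markers ran from −0.33 to −0.30 as single pairs were left out. None was called. The median deviation of endothelial markers was −0.21, −0.23 and −0.21 in 3m, and −0.38, −0.22 and 0.05 in 10m. For markers of stellate cells and matrix it was −0.21, 0.08 and 0.30 in 1m and −0.36, −0.41 and −0.16 in 3m, which overlapped. In 10m it was −0.30, −0.28 and −0.03. Both marker lists were higher in 3m in RNA (medians 0.45 and 1.06, with 4 and 9 called higher). They were less so in footprints (0.16 and 0.57, with 2 and 3 called higher). Among all genes tested, 11.3% were called higher in RNA and 8.01% in footprints. In bulk tissue, more cells of a type and more RNA per cell cannot be told apart. Kidney tubule markers had the lowest median of all lists, at −1.24. Of 18, 7 were tested, all below 0 and none called. Their median deviation was 1.15, 0.26 and 0.22 in 1m and −1.16, 1.01 and −0.83 in 3m, so the labels overlapped. Kap, a member, held 11.9, 0 and 18.4 CPM in RNA of the 3m pairs and 0.133, 1.15 and 0.416 CPM in their footprints. In 1m it held 9.10, 0 and 0 CPM in RNA and 13.3, 0.138 and 0.0703 CPM in footprints. The part of kidney RNA in this was not tested.

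Stab2, a scavenger receptor of liver sinusoids, had log2 ratios of 0.06, 0.03 and 0.04 in 1m and −0.10, −0.16 and −0.20 in 3m. The groups did not overlap, yet the difference of −0.19 ± 0.15 did not pass the test (SE, edgeR adjusted p = 0.803). Reln, the matrix protein reelin of stellate cells, had 0.49, 0.78 and 1.28 in 1m and 0.07, 0.29 and 0.44 in 3m, a difference of −0.57 ± 0.20 (SE, edgeR adjusted p = 0.407).

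The genes of smallest p with lower ratios in 3m, none of them called, included further vessel and matrix genes. Hspg2, the basement membrane proteoglycan perlecan, had log2 ratios of 0.67, 0.89 and 1.14 in 1m and 0.18, 0.30 and 0.25 in 3m (difference −0.65 ± 0.16, SE, edgeR adjusted p = 0.155). Plvap, the diaphragm protein of endothelial pores, had 0.50, 0.41 and 0.53 in 1m and −0.24, −0.00 and −0.15 in 3m (difference −0.61 ± 0.16, SE, edgeR adjusted p = 0.160). The laminin chain Lama3, the protease Adamts1 and the heat shock gene Hspa1b stood at −1.05, −0.67 and −1.06, and Tmem102, Bcat2 and Kyat3 at −0.94, −0.90 and −0.55. Their adjusted p lay between 0.111 and 0.160 by edgeR.

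Among mitochondrially encoded genes, 7 of 13 were tested, and the other 6 did not pass the count filter. All 7 lay below 0, with a median ratio difference of −0.68, and 5 did not overlap, against 8.04% of all genes. The median was −0.81 without pair 1 of 1m and −0.54 without pair 3 of 1m. Without pair 3 of 1m and pair 1 of 3m together it was −0.49. Their median deviation was −0.13, 0.14 and 0.66 in 1m and −0.57, −0.46 and −0.46 in 3m. In 32m it was −0.45, 0.33 and −0.75, so low values were not confined to 3m. The cytochrome oxidase subunit mt-Co1 had log2 ratios of 2.15, 2.15 and 2.55 in 1m and 1.44, 1.72 and 1.63 in 3m, a difference of −0.68 ± 0.20 (SE, edgeR adjusted p = 0.297). No member was called. Nuclear-encoded subunits of oxidative phosphorylation had a median of 0.09 over 75 genes, with no call.

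Among 10 tested noncoding RNAs and snoRNA hosts, 5 lay above and 5 below 0 in ratio difference, with a median of 0.04 and no call. Rpph1, the RNA of ribonuclease P, ran from 4613 to 6861 CPM in the footprint columns compared, and its RNA from 43.9 to 61.4 CPM in 1m and 76.2 to 106 CPM in 3m. Its ratio differed by −0.71 ± 0.24 (SE, edgeR adjusted p = 0.397), and that of Rn7sk, the small nuclear RNA that holds the elongation factor P-TEFb, by −1.40 ± 0.59 (SE, edgeR adjusted p = 0.599). Neither passed the test. Gas5, a spliced host of small nucleolar RNAs with a TOP start, named after its value was seen, stood at 1.58 ± 0.39 (SE, edgeR adjusted p = 0.150). The share of mitochondrially encoded counts in RNA was 0.597% to 0.756% in 1m and 0.809% to 1.20% in 3m, and it did not overlap. The part of library make-up in the TOP shift was not tested.

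Several immune and blood cell lists summed higher in RNA of 3m. The summed level of 24 macrophage and Kupffer cell markers was 896 to 1270 CPM in RNA of 1m and 1723 to 9720 CPM in RNA of 3m, with none at 0. For 18 B and plasma cell markers it was 8.84 to 21.2 CPM in 1m and 97.4 to 2647 CPM in 3m, and for 11 neutrophil markers 2.01 to 4.70 CPM and 6.85 to 476 CPM. The 15 markers of T and NK cells overlapped, at 3.01 to 4.45 CPM in 1m and 4.05 to 91.2 CPM in 3m. In footprints macrophage markers overlapped, at 900 to 1137 CPM in 1m and 1122 to 8235 CPM in 3m. Neutrophil markers did too, at 1.76 to 5.31 and 3.33 to 188 CPM. B and plasma cell markers did not, at 10.7 to 26.2 and 52.0 to 1300 CPM. The 10 erythroid markers did not overlap in RNA (125 to 129 and 137 to 273 CPM) or in footprints (257 to 392 and 444 to 544 CPM). In ratio, the 8 tested macrophage markers, 16 having been used for matching, had a median of −0.35, with 3 above 0, 5 below and no call. Of 12 tested B and plasma cell markers 4 lay above and 8 below 0, and of 4 erythroid markers 1 and 3. The 2 tested T and NK cell markers lay 1 on each side, and all 3 neutrophil markers below. The part of these cells in the ratio shifts was not tested. Sex-biased genes also differed. The 6 tested genes known as higher in male liver had a median difference of −2.41 in footprints and −2.78 in RNA. Of them 1 and 3 were called lower, against 3.24% and 6.17% of all genes. The median log2 CPM of these 6 in footprints was 0.52, 3.99 and 6.28 in the 3m pairs. Pair 3 lay inside the 1m range of 6.04 to 6.76. The 9 known as higher in female liver had median differences of 3.97 and 3.08. Of them 4 and 5 were called higher, against 8.01% and 11.3% of all genes. Their median log2 CPM in footprints was 1.15, 3.86 and 2.26 in 3m and 6.11, 4.83 and 5.09 in 10m. In 1m it was 0.23, −0.13 and −0.51. The 6 male genes stood at 2.73, 4.42 and 4.05 in footprints of the 10m pairs. Of the listed genes, 14 male and 3 female ones had been used for matching. The part of sex-biased expression in the ratio shifts was not tested.

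Arpc1b, a subunit of the actin-nucleating Arp2/3 complex, was higher in ratio in 3m. Its log2 ratios were 1.02, 1.48 and 0.78 in 1m and 2.31, 1.91 and 1.74 in 3m (difference 0.94 ± 0.20, SE, edgeR adjusted p = 0.0701), and its footprints were called higher.

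No gene on the secretory and metabolic lists of hepatocytes was called in ratio, where 0.0646% of all genes were called. Medians were 0.00 over 33 plasma proteins, −0.03 over 26 folding factors of the endoplasmic reticulum and −0.04 over 21 genes of fatty acid oxidation. They were 0.06 over 16 genes of cholesterol synthesis, −0.14 over 22 of drug metabolism and −0.14 over 14 of the urea cycle and gluconeogenesis. For 10 genes of bile acid metabolism the median was −0.11, with 8 below 0. Below 0 lay 18 of the 22 genes of drug metabolism, 16 of the 21 of fatty acid oxidation and 11 of the 14 of the urea cycle list. For all genes it was 5834 of 10841. Plasma proteins had 18 above and 15 below 0, folding factors 11 and 15, and cholesterol synthesis 9 and 7. In the urea cycle list 4 did not overlap and were lower, against 8.04% of all genes, and 1 was higher, against 4.81%. Among lists whose translation is known to respond to other signals, medians were −0.09 for 20 genes of the integrated stress response and 0.00 for 19 selenoproteins. For 12 iron-responsive mRNAs it was −0.20, with 9 below 0. In the last, Fth1, the ferritin heavy chain, had log2 ratios of 2.95, 2.04 and 3.00 in 1m and 1.00, 1.98 and 1.65 in 3m. These did not overlap, with a difference of −1.12 ± 0.69 that did not pass the test (SE, edgeR adjusted p = 0.751).

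Over all 6 labels, the ratio differed for 4 genes (0.0369%), Zfp36, Map1lc3b, Rtraf and Gdf15, by edgeR's quasi-likelihood test of 5 differences from 1m, and 765 genes had an unadjusted p under 0.05. Zfp36 and Gdf15 stood apart in 10m. Zfp36 encodes tristetraprolin, which binds AU-rich elements and hastens mRNA decay. Its log2 ratio was −0.65, −1.18 and −0.78 in the 10m pairs and between −0.11 and 0.82 in the 15 others, so 10m overlapped with no other pair. Its RNA was 105, 106 and 154 CPM in 10m and 28.0 to 67.3 CPM elsewhere, whereas its footprints of 66.9, 46.5 and 89.3 CPM in 10m overlapped with the rest. The adjusted p over the labels was 0.00631, and that of 10m against 1m was 0.0547 for a difference of −0.94, both by edgeR.

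Gdf15, a hormone released by stressed cells, had log2 ratios of −0.36, −0.75 and 0.02 in 10m and 0.55 to 2.17 in the others. Its RNA was 22.5, 12.1 and 17.1 CPM in 10m and 0.255 to 6.80 CPM elsewhere, while its footprints were 17.4, 6.98 and 17.3 CPM in 10m and 1.71 to 13.5 CPM elsewhere, so they overlapped. The ratio of 10m was lower than that of 1m by a log2 difference of −2.22 (edgeR adjusted p = 0.0375; 0.0319 over the labels). In 1m the RNA was 27, 2 and 10 counts.

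Spen, a large RNA-binding corepressor, was the other gene lower in 10m against 1m, and it was named after that call. Here the footprints differed, at 22.1, 25.4 and 17.6 CPM in 10m and 30.2 to 59.8 CPM elsewhere. RNA was 8.98 to 10.2 CPM in 10m, inside the range of the other pairs. The difference was −1.21 ± 0.22 (SE, edgeR adjusted p = 0.0375). These 2 genes are 0.0184% of those tested.

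Rtraf, a protein that takes part in RNA transport and tRNA ligation, had log2 ratios of 2.38, 2.34 and 1.94 in 10m and 1.61, 1.65 and 2.53 in 3m, above 0.56 to 1.45 in the other 12 pairs. Its RNA was 6.96, 7.18 and 9.54 CPM in 10m and higher in all 1m pairs, up to 17.7 CPM (edgeR adjusted p over the labels = 0.0319). The ratio of Map1lc3b was 4.73, 4.08 and 3.52 in 32m, which overlapped with 3m, and between 4.53 and 5.99 in the remaining labels (edgeR adjusted p over the labels = 0.0253). The next smallest adjusted p belonged to Nsa2, a factor of ribosome assembly, and Cd1d1, a lipid antigen-presenting molecule, at 0.0648 by edgeR. For 20m, 26m and 32m against 1m edgeR called no gene (0%), with 302, 322 and 307 genes at an unadjusted p under 0.05.

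**Figure D5:**
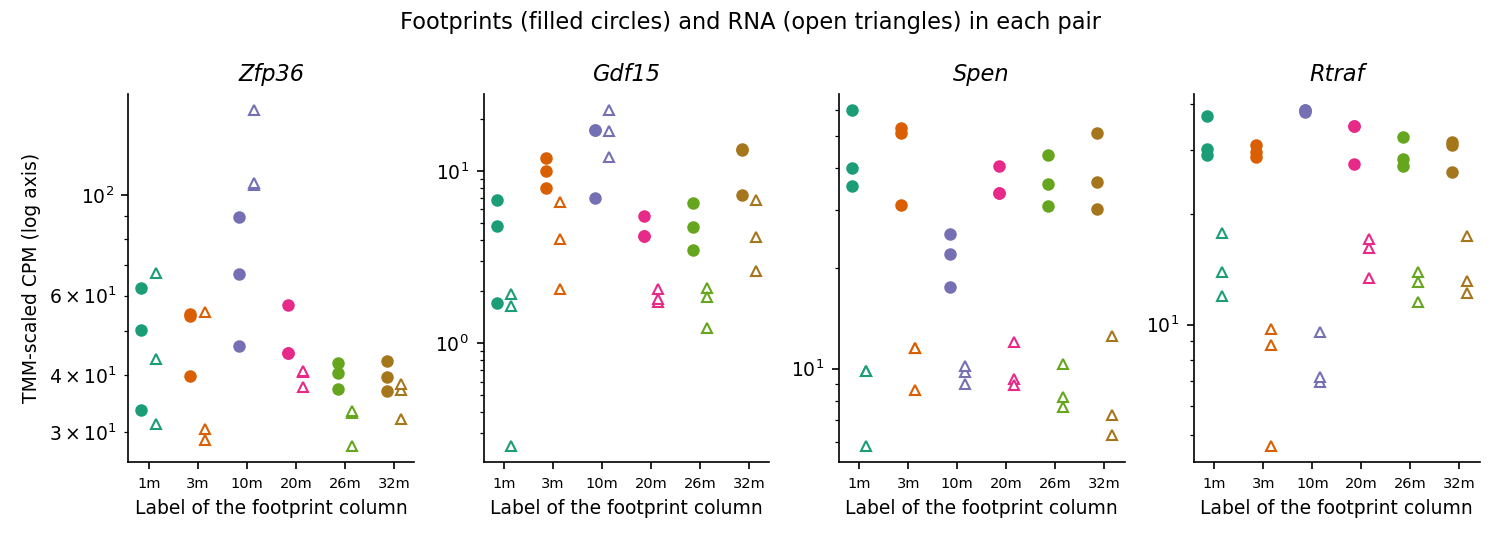
TMM-scaled CPM of footprints (filled circles) and RNA (open triangles) on a log axis, for Zfp36, Gdf15, Spen and Rtraf in each pair, by the label of the footprint column. In 10m the RNA of Zfp36 (105 to 154 CPM) and Gdf15 (12.1 to 22.5 CPM) lies above all other pairs, and the footprints of Spen (17.6 to 25.4 CPM) lie below all others.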

How the data were processed

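Footprints and rRNA-depleted total RNA came from the same lysates, per the labels' protocols, with directional RNA libraries. The values deposited are read counts for each gene, not normalized. Per the submitters' processing notes, cutadapt 1.14 and STAR 2.5.3 were used with mm10, and the counting tool and its use of strand are not given in the sources used here. Of 50222 gene identifiers 49998 matched a symbol.

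Genes with at least 10 counts by filterByExpr in both assays and outside the 400 matching genes were tested (10841) in edgeR 4.0.16 (R 4.3.3, robust quasi-likelihood, two-sided), with TMM factors per assay, a term per pair and assay by label terms. The shared footprint column gave 35 libraries in 17 blocks. Single assays were fitted without blocks, the footprints over all 18 liver columns. SE was taken as |log2 difference| over √F. Log2 ratios add 0.5 CPM to both sides. Plain CPM are used for label checks, marker sums and Alb, and TMM-scaled CPM elsewhere. Since the labels of RNA columns did not hold, p-values measure the spread between these libraries, which need not be separate animals. With 3 pairs a label, the smallest p of an exact two-sided permutation test between 2 labels is 0.1; depth limits genes with few RNA counts most. The procedure was checked on simulated counts.

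Named genes were up to 8 each way among called genes with at least 5 CPM in each assay and ratios that do not overlap, filled up by unadjusted p. From each list up to 3 called or otherwise up to 2 of the highest footprint level were taken, and from the 6 labels the 8 of smallest adjusted p not yet named. Genes taken otherwise are marked. Predicted models were not named, and not all genes taken by the rule are described. The pairs, the members and the 41 gene lists were chosen with earlier results of these data known. Alternatives were DESeq2 1.42.0, limma 3.58.1 on ratios, other scalings, filters, matching sets, thinned RNA, a replicate block and each pair left out.

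Replicate numbers did not pair the libraries. Deviations of same-numbered footprint columns of different labels correlated by −0.0563 on average (−0.471 to 0.400), and those of the ratios by −0.0163 (−0.261 to 0.226).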

Additional observations from a re-analysis of the deposited data

How the results depend on the processing

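The count of 7 genes called for the ratio between 3m and 1m became 3 with RLE factors, 2 with library size only, 18 with DESeq2, 107 with no filter on low counts, 3 with a minimum count of 50, 11 with RNA thinned to 2551502 counts, 2 (both lower) in the 6 compared pairs alone, and 0 with limma on log2 ratios (740 genes at an unadjusted p under 0.05), with no pair term (275) or with the 400 matching genes kept (920). Leaving out single pairs gave 0 to 21. The count over 6 labels, 4, became 34 with DESeq2, 249 with no filter, 1 with a minimum count of 50, 0 with no pair term (221 at an unadjusted p under 0.05), 2 with the 400 genes kept and, chosen after seeing the data, 7 with 1 footprint column per RNA column. Without pair 3 of 1m and pair 1 of 3m together, also chosen after seeing the data, no ratio was called between 3m and 1m (707 at an unadjusted p under 0.05). The RNA count of 1894 ran from 796 to 2487 and the footprint count of 1219 from 234 to 2369 as single pairs were left out, and they were 363 and 12 in the 6 pairs alone. The causes were not tested. With a replicate block 7 genes were called between 3m and 1m and 3 over the labels; the numbers do not pair the libraries.

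The direction of the 7 called genes held under each alternative run. Of the alternatives in which they could be fitted, Chp1 was called in 13 of 22, Lifr in 12 of 22, Rps25 in 10 of 22, Pfdn5 and Map1lc3b in 9 of 22 and 9 of 21, Eif4b in 8 of 22 and Rpl37a in 7 of 20. List medians were not computed with DESeq2, with limma or in the 6 pairs alone. Under the other alternatives the median ratio difference lay between 0.55 and 1.05 for ribosomal proteins and between 0.56 and 0.80 for other TOP genes.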
